A study of Homo sapiens with 4 samples.

Results

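Bone morphogenetic protein (BMP) signalling was followed through 10 genes of a table of 60302 genes: the secreted antagonists NBL1, FST and GREM1, the ligands BMP2, BMP4 and BMP7, the receptors BMPR1A and BMPR2, and the target genes ID1 and ID3. Each was taken by its symbol, as the row with the highest mean, and each symbol had a single row. They were put together because NBL1 was about 2-fold higher after knockdown of hnRNPF. The knockdown values of NBL1 are therefore a description with no test, and they support nothing further. The cells were HMLE, an established line of human mammary epithelial cells immortalized with telomerase and SV40 early-region genes. All 4 samples carried a lentiviral short hairpin stably expressed: non-specific in the 2 control samples and directed at HNRNPF in the 2 knockdown samples. The labels do not say whether samples of 1 group came from separate infections, clones or hairpin sequences, so a p-value here reflects the variation among these 4 libraries, which may be technical. The values are FPKM, counts of fragments normalized to gene length and to sequencing depth, from stranded libraries of polyadenylated RNA.

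BMPs are secreted dimers of the TGF-beta superfamily. They bring together type I and type II serine/threonine kinase receptors, which phosphorylate SMAD1, SMAD5 and SMAD9. These enter the nucleus with SMAD4 and switch on target genes, of which the ID genes are the best known. ID proteins lack a DNA-binding region and hold bHLH transcription factors off DNA. Antagonists such as NBL1 (also called DAN), gremlin and follistatin bind the ligands outside the cell and keep them from their receptors. In mammary epithelium the pathway is known for roles in gland development and in the balance between basal and luminal cells.

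HNRNPF, the target of the hairpin, was at 154 and 153 FPKM in controls 1 and 2, against 18.7 and 16.6 FPKM in knockdown samples 1 and 2, so every sample matched its label (limma, adjusted p = 0.0251). It was the single gene of 13110 tested that passed an adjusted p of 0.05, and the call was lost in 5 of 13 alternatives. The FPKM sums lay between 391184 and 396135. Fragment totals are not listed. The commonest lowest step in the values of single-exon genes, if it is 1 fragment, puts 1 FPKM on 1 kb at between 77.4 and 85.0 fragments. Defining markers of basal mammary epithelium were high: KRT5 lay between 3203 and 4878 FPKM and KRT14 between 2467 and 3984 FPKM. The 5 leukocyte markers summed to 12.0 and 12.5 FPKM in controls 1 and 2 and to 11.3 and 11.5 FPKM after knockdown. CD68, a lysosomal glycoprotein gene, made up nearly all of this, between 11.2 and 12.1 FPKM, while PTPRC, the gene of the leukocyte antigen CD45, was at most 0.0384 FPKM. The 3 endothelial markers found in the table summed to between 0.0532 and 0.125 FPKM, with CDH5 at most 0.0242 FPKM. The 8 fibroblast markers summed to 29.8 and 27.2 FPKM in controls 1 and 2 and to 27.7 and 30.6 FPKM after knockdown, nearly all from THY1 and COL1A1, while DCN and LUM stayed under 0.08 FPKM. In bulk RNA, fewer cells of a type and less RNA per cell cannot be told apart.

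The study's title concerns RNA G-quadruplexes, structures formed by runs of G, and hnRNP F recognises G-rich RNA. The members were therefore searched for the pattern of 4 runs of at least 3 G separated by 1 to 7 bases, on the sense strand of the longest coding GENCODE 29 transcript. Of the 10 members, 5 held a match, against 28.3% of the tested genes that have such a transcript. The 10 include GREM1, BMP4 and BMP7, which were too low to be tested, so the shares are of unlike sets. Of the 7 tested members, those with a match were NBL1, BMPR1A and ID3. No allowance was made for transcript length. The matches are shown 5′ to 3′ as DNA, with runs of G in capitals, because they are the stretches the comparison is about.
NBL1: GGGGacctGGGGGGaGGGacaGGG
GREM1: GGGGGcGGGGccaaGGGcGGGG
BMP7: GGGcgagtgcGGGGcgaGGGGcccGGGG
BMPR1A: GGGaggaGGGccaaGGGcGGG
ID3: GGGccggcGGGGGcaGGGccgaggcGGG
The NBL1 match lies in the 3′ UTR, at chr1:19658222-19658245 on the plus strand (GRCh38, the build of GENCODE 29). The GREM1 match is in the coding sequence (chr15:32730863-32730884, plus strand). Those of BMP7 (chr20:57266314-57266341, minus strand), BMPR1A (chr10:86756710-86756730, plus strand) and ID3 (chr1:23559569-23559596, minus strand) are in the 5′ UTR. The ID3 match is in the transcript by its GENCODE start, but not by the RefSeq start used for its promoter below. A match is a pattern of letters and not a measured structure or binding site.

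Runs of at least 3 G were denser in NBL1 than in the other members. Its longest coding transcript held 69 such runs in 2172 bases, or 31.8 per kb, and 99.5% of the tested genes had fewer per kb, around a median of 12.5. BMPR2 was at the other end of the members, with 6.11 runs per kb. ID1 had 20.3, ID3 13.6 and FST 8.67 runs per kb. When the transcript with the longest coding sequence was taken instead, NBL1 had 27.4 runs per kb, above 97.9% of the tested genes. That shorter transcript held no match to the pattern, and 4 of 10 members then did, against 26.0% of tested genes. Of those 4, GREM1 and BMP7 were not tested. These densities describe the annotated transcripts. Which NBL1 isoforms the cells made was not analysed here.

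NBL1 encodes a small secreted cystine-knot protein of the DAN family that binds BMPs. Its gene (ENSG00000158747.13) lies on chromosome 1 from 19967048 to 19984949 on the plus strand (GRCh37). It was the most abundant of the 10 members, at 49.9 and 46.3 FPKM in control cells and at 102 and 95.0 FPKM after knockdown. The knockdown samples were both higher than both controls, and samples of a group lay close together: number 2 was at 0.927 times number 1 in the controls and at 0.930 times in knockdown. The ratio of the means was 2.05 (48.1 ± 2.58 and 98.5 ± 5.04 FPKM, SD, n = 2 per group). On the log2(FPKM + 1) scale the difference was 1.02, and 40 of the 13110 tested genes had a larger rise. Leaving out each sample in turn gave 0.97 to 1.07.

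A readthrough gene, MINOS1-NBL1, joins NBL1 to its upstream neighbour MINOS1, which encodes a subunit of the mitochondrial MICOS complex, and fragments could be shared between the rows. MINOS1-NBL1 was listed at 0.709 and 0.573 FPKM in control cells and at 0.605 and 0.0638 FPKM after knockdown. Summed with it, NBL1 stood at 50.6 and 46.8 FPKM and then 102.7 and 95.0 FPKM. The log2 difference was then 1.01, against 1.02 for NBL1 alone. MINOS1 itself was at 27.6 and 22.6 FPKM in control cells and 28.9 and 26.4 FPKM after knockdown, with overlapping groups. The 3 genes nearest to NBL1 in their log2 profile over the 4 samples, among the 6382 genes averaging 10 FPKM or more, were RAP1A, ITM2C and KLK10, at distances of 0.0718, 0.193 and 0.237. KLK10, a secreted kallikrein-related peptidase gene, was at 65.7 and 48.4 FPKM in control cells and 125 and 110 FPKM after knockdown. This likeness rests on 4 samples and on the NBL1 values that chose the members. A gene near NBL1 in this profile must rise by about as much, so the likeness supports nothing further.

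FST encodes follistatin, which binds activins tightly and some BMPs. It lies on chromosome 5 from 52776239 to 52782964 on the plus strand (GRCh37, ENSG00000134363.11). FST was at 36.4 and 40.3 FPKM in control cells and at 42.1 and 31.9 FPKM after knockdown. The knockdown samples held both the highest and the lowest value, so the groups overlapped. The log2 difference was -0.06 with a 95% interval of -0.50 to 0.37 (limma, adjusted p = 0.999). GREM1, the gene of gremlin 1 (chromosome 15, 33010175 to 33037308, plus strand), was near the bottom of the scale, at 0.0372 and 0.0211 FPKM in control cells and 0.0382 and 0.0234 FPKM after knockdown. It had too low a mean to be tested. FST and GREM1 thus overlapped between the groups, and GREM1 was too low to inform the comparison. NBL1 did not overlap, but its rise is why the members were chosen. Over the table, the groups did not overlap for 34.6% of tested genes.

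**Figure D1:**
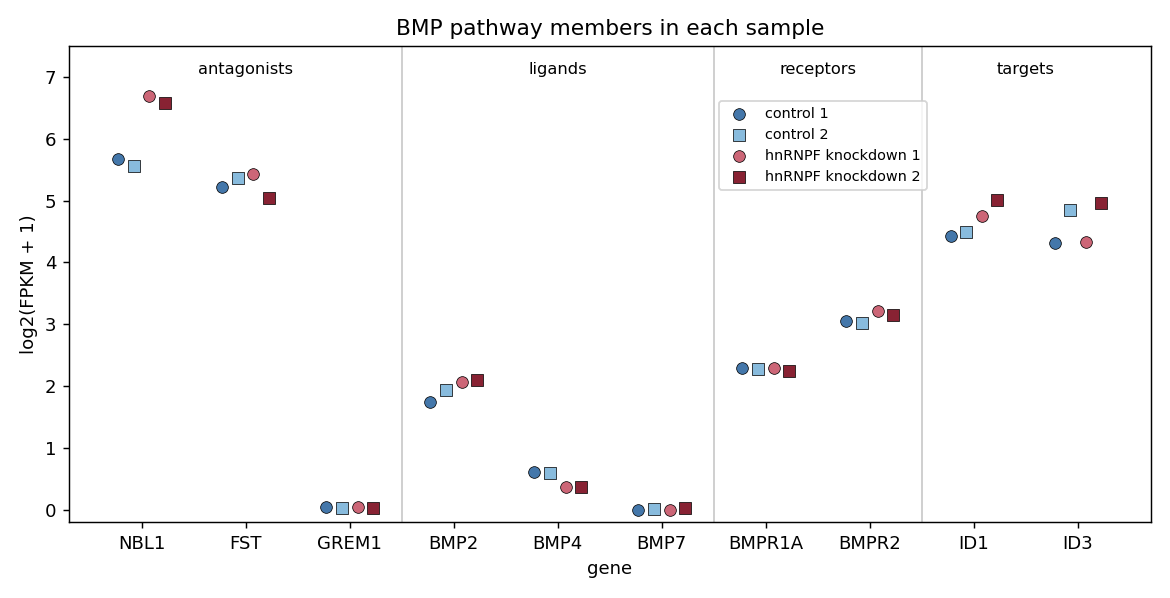
Levels of the 10 members as log2(FPKM + 1) in each sample, ordered by role; circles are replicate 1 and squares replicate 2, blue for control and red for hnRNPF knockdown. NBL1, whose rise chose the members, separates the groups, at 49.9 and 46.3 against 102 and 95.0 FPKM. BMP2, BMPR2 and ID1 (higher after knockdown) and BMP4 (lower, not tested) separate them as well. Over the table, the groups do not overlap for 34.6% of tested genes. The ID3 points pair by replicate number.

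Among the ligands, BMP2 was the member with the highest level and BMP7 the lowest. BMP2 (chromosome 20, 6748311 to 6760927, plus strand) was at 2.36 and 2.81 FPKM in control cells and at 3.18 and 3.31 FPKM after knockdown. Both knockdown samples lay above both controls, 1.25-fold by the means. The log2 difference of 0.24 (SE 0.155, 95% interval -0.17 to 0.66) did not pass (limma, adjusted p = 0.916). BMP4 (chromosome 14, 54416454 to 54425479, minus strand) went the other way, from 0.524 and 0.508 FPKM in control cells to 0.286 and 0.287 FPKM after knockdown. Both knockdown samples were lower and the samples of a group differed by little, but the mean was under 1 FPKM and the gene was not tested. Without a filter on low values its adjusted p was 0.852 in limma. BMP7 (chromosome 20, 55743804 to 55841685, minus strand) was listed at 0 and 0.00592 FPKM in control cells and at 0 and 0.0240 FPKM after knockdown.

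Neither receptor gene passed the test. BMPR1A encodes a type I receptor, the kinase that phosphorylates the SMADs (chromosome 10, 88516407 to 88692595, plus strand). It was at 3.90 and 3.87 FPKM in control cells and at 3.92 and 3.76 FPKM after knockdown, the narrowest range of all members, with the highest sample 1.04 times the lowest. Its log2 difference was -0.01 with a 95% interval of -0.38 to 0.35 (limma, adjusted p = 0.999). BMPR2 encodes the type II receptor that activates the type I partner (chromosome 2, 203241659 to 203432474, plus strand). BMPR2 was at 7.26 and 7.14 FPKM in control cells and at 8.33 and 7.88 FPKM after knockdown. The knockdown samples were both higher, 1.13-fold by the means, and the log2 difference of 0.15 (95% interval -0.18 to 0.48) did not pass (limma, adjusted p = 0.950).

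ID1 and ID3 encode closely related inhibitors of bHLH factors and are read here as transcripts that respond to SMADs. ID1 (chromosome 20, 30193086 to 30194318, plus strand) was at 20.5 and 21.6 FPKM in control cells and at 25.8 and 31.0 FPKM after knockdown. Both knockdown samples were above both controls, and the ratio of the means was 1.35 (21.0 ± 0.739 and 28.4 ± 3.70 FPKM, SD, n = 2 per group). The log2 difference was 0.41 (SE 0.128, 95% interval 0.07 to 0.75), but the adjusted p over all genes was 0.782 in limma. Leaving out each sample in turn gave differences of 0.28 to 0.54. ID3 (chromosome 1, 23884409 to 23886285, minus strand) was at 18.8 and 27.6 FPKM in control cells and at 19.1 and 30.2 FPKM after knockdown. Here the samples grouped by replicate number and not by hairpin: number 2 was 1.47 times number 1 in the controls and 1.58 times in knockdown. The log2 difference of ID3 between the groups was 0.07 with a wide 95% interval of -0.69 to 0.84 (limma, adjusted p = 0.999), and it turned negative without control 1 (-0.19) or knockdown 2 (-0.24). ID1 and ID3 overlapped in level. No test of the difference between their responses was made.

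The promoters of ID1 and ID3 are shown because these are the members read as targets. Each runs from 250 bases before to 50 bases after a RefSeq start (GRCh38.p14), at chr20:31605039-31605338 on the plus strand for ID1 and chr1:23559452-23559751 on the minus strand for ID3. Capitals mark matches on either strand to 3 motifs. GGCGCC is a GC-rich motif bound by SMADs and reads the same on both strands. CAGAC, the SMAD-binding core, reads GTCTG on the other strand. TATAA, the core of the TATA box, reads TTATA there.
ID1: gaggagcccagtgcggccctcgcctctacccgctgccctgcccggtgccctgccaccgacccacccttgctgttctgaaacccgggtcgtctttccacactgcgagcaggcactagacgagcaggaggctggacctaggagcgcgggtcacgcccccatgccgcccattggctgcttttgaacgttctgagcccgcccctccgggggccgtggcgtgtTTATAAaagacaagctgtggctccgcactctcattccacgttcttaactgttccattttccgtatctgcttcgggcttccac
ID3: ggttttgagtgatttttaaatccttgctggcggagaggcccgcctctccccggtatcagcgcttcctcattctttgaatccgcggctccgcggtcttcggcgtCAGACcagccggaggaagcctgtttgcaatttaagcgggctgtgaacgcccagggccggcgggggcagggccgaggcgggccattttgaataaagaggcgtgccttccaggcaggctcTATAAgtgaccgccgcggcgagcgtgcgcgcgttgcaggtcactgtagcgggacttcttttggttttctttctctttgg
In ID1 the capitals are 2 overlapping TATAA matches, 1 on each strand, and neither SMAD motif is in this window. ID3 has 1 CAGAC and 1 TATAA match. The G-run match of ID3 shown above falls inside this window as well, since the GENCODE transcript starts upstream of the RefSeq start. The match lies before the RefSeq start, so by that start it is promoter DNA and not part of the RNA. Which start the cells used was not analysed. Of all 35116 promoters of this length, 19.2% hold GGCGCC, 45.3% CAGAC and 20.4% TATAA. Promoters were listed for 8 of the 10 members, BMP2 and BMP7 being without an entry in the table used. The absence of letters from this window says nothing of sites farther away.

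The other members are set here against the whole table. Of the 9 members besides NBL1, 6 reached a mean of 1 FPKM and were tested, and 0 passed (limma). In the table as a whole 0.00763% of tested genes passed, so 0 passing says nothing particular of the members. At an unadjusted p under 0.05 there was 1 of the 6, ID1, against 6.08% of all tested genes. Both knockdown samples lay above both controls for 3 of the 6 (BMP2, BMPR2 and ID1), against 17.5% of all tested genes, and below them for 0 of 6, against 17.1%. The median log2 difference of the 6 was 0.11, and that of all tested genes 0.00. Groups that did not overlap in either direction were thus 3 of 6, against 34.6% of all tested genes. BMP4 falls outside this count, and no test was made on the list.

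The order of the members by mean FPKM over the 4 samples was NBL1 (73.3), FST (37.7), ID1 (24.7), ID3 (24.0), BMPR2 (7.65), BMPR1A (3.86), BMP2 (2.91), BMP4 (0.401), GREM1 (0.0300) and BMP7 (0.00748). Neighbours in this order did not overlap over the 4 samples, except ID1 with ID3 and GREM1 with BMP7. FPKM are scaled per length, so these levels can be set side by side. The 19 genes listed as BMP and activin antagonists, NBL1 among them, summed to 221 and 183 FPKM in control cells and 238 and 223 FPKM after knockdown. FSTL3 alone gave 41.7 FPKM of this sum in control 1 and 8.41 FPKM in control 2. The 14 BMP ligand genes summed to 3.85 and 4.58 FPKM and then 5.23 and 5.56 FPKM. The 5 activin and inhibin subunit genes, whose products some of these antagonists bind, summed to 56.0 and 47.1 FPKM in control cells and to 68.5 and 72.3 FPKM after knockdown. NBL1 made up 22.6% and 25.2% of the antagonist sum in the controls and 42.9% and 42.6% in knockdown. The antagonist sums and these shares carry the NBL1 values that chose the members, so their differences between the groups support nothing further. Transcript sums give no amounts of secreted protein.

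The wider BMP and activin pathway was read from 8 lists of 85 genes, the members included. Without the 10 members, 32 genes were tested and 0 passed (limma), with 3 at an unadjusted p under 0.05 (BMP6, INHBA and FURIN), against 6.08% of all tested genes. Both knockdown samples lay above both controls for 6 of the 32, against 17.5% of all tested genes, and below for 3, against 17.1%. The median log2 difference was 0.05. Both tested BMP ligands, BMP2 and BMP6, stood higher in both knockdown samples, against 17.5% of all tested genes, and neither passed. BMP4, which was not tested, was lower in both. BMP6, the second ligand after BMP2, was at 0.630 and 1.06 FPKM in control cells and 1.52 and 1.75 FPKM after knockdown, 1.93-fold by the means (limma, adjusted p = 0.817). BMP2 and BMP6 together made up between 77.7% and 90.8% of the ligand sum. The other 12 ligand genes, BMP4 and BMP7 among them, were not tested, and 5 of the 14 were at 0 in all samples.

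Activin is the main ligand bound by follistatin, and INHBA, which encodes the subunit of activin A, was the single tested gene of its 5-gene list. It was at 54.3 and 46.6 FPKM in control cells and at 67.4 and 71.6 FPKM after knockdown. The knockdown samples were both higher, with a log2 difference of 0.46 (SE 0.114, 95% interval 0.16 to 0.76) that did not pass (limma, adjusted p = 0.683). INHBA was above FST in every sample.

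FURIN encodes the proprotein convertase that cuts BMP and activin precursors into their active form. FURIN was at 41.1 and 45.0 FPKM in control cells and at 22.7 and 28.9 FPKM after knockdown. Both knockdown samples were lower, 1.67-fold by the means, and this was the smallest p of the tested genes in these lists other than NBL1. With a log2 difference of -0.72 (SE 0.148, 95% interval -1.12 to -0.33) it missed the threshold (limma, adjusted p = 0.586). BMP1 is a metalloproteinase that cleaves the antagonist chordin and is no BMP ligand despite its name. It was at 28.5 and 25.8 FPKM in control cells and 39.2 and 31.1 FPKM after knockdown, both higher (limma, adjusted p = 0.836). PCSK7, a further convertase, and TLL1, related to BMP1, overlapped between the groups.

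Of the 13 receptor and co-receptor genes, 8 were tested and 0 passed, with both knockdown samples above both controls for 2, BMPR2 and ENG, against 17.5% of all tested genes. ENG, the co-receptor endoglin, was at 15.3 and 15.1 FPKM in control cells and 18.0 and 16.0 FPKM after knockdown. The type I receptors ACVR1 and ACVR1B overlapped between the groups. Of the 19 antagonists 8 were tested, and besides NBL1 the knockdown samples were both above for 1, against the same 17.5%. This was NOG, which encodes noggin (0.980 and 1.16 FPKM in control cells, 1.26 and 1.34 FPKM after knockdown). The abundant FSTL1 and CRIM1 overlapped between the groups. FSTL3, a follistatin-like activin antagonist, was at 41.7 FPKM in control 1 and 8.41 FPKM in control 2, against 11.8 and 8.91 FPKM after knockdown. Control 1 alone set its negative log2 difference of -0.83, which was 0.26 without that sample.

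Among the 13 intracellular genes 10 were tested and 0 passed. SMAD5, one of the SMADs that BMP receptors phosphorylate, was at 28.0 and 20.8 FPKM in control cells, then 16.7 FPKM in knockdown 1 but 4.97 FPKM in knockdown 2. Both knockdown samples were lower, but the log2 difference of -1.29 was -0.51 without knockdown 2 (limma, adjusted p = 0.840 over all samples). SMAD1, its close relative, overlapped between the groups, at 15.6 and 14.5 FPKM in control cells and 13.6 and 17.6 FPKM after knockdown. So did the ubiquitin ligase gene SMURF2 and the antiproliferative gene TOB1. Both knockdown samples were below for 2 of the 10, SMAD5 and PPM1A, against 17.1% of all tested genes. PPM1A, a SMAD phosphatase gene, was at 9.50 and 8.51 FPKM in control cells and 6.77 and 7.19 FPKM after knockdown.

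Of the 15 target genes 4 were tested, ID1, ID3, SMAD7 and RUNX2, and 0 passed. SMAD7, the feedback inhibitor, was at 3.26 and 3.92 FPKM in control cells and 3.82 and 4.50 FPKM after knockdown, again with number 2 above number 1 in each group. ID2 was at 0.0963 and 0.185 FPKM in control cells and 0.215 and 0.373 FPKM after knockdown. ID4 was at 0.0602 and 0.0634 FPKM in control cells and 0.0450 and 0.0301 FPKM after knockdown. Of the targets not tested, all averaging under 1 FPKM, both knockdown samples were above both controls for ID2, SMAD6, SMAD9 and HEY1. They were below for ID4 and MSX2, and the groups overlapped for BAMBI, MSX1, ATOH8, DLX3 and DLX5. No share over all genes under 1 FPKM was computed to set beside these, so nothing is read from them. SMAD9, chosen here after its values were seen, was at 0.177 and 0.164 FPKM in control cells and 0.490 and 0.454 FPKM after knockdown, 2.76-fold by the means and below the level tested. SOSTDC1, an antagonist gene also chosen after its values were seen, was at 0.0691 and 0.0246 FPKM in control cells and 0.268 and 0.239 FPKM after knockdown. The bHLH partners that ID proteins bind, TCF3, TCF4 and TCF12, were all tested and 0 passed. Of these, TCF4 stood higher in both knockdown samples, at 2.03 and 2.14 FPKM in control cells and 2.57 and 2.70 FPKM after knockdown (limma, adjusted p = 0.916).

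**Figure D2:**
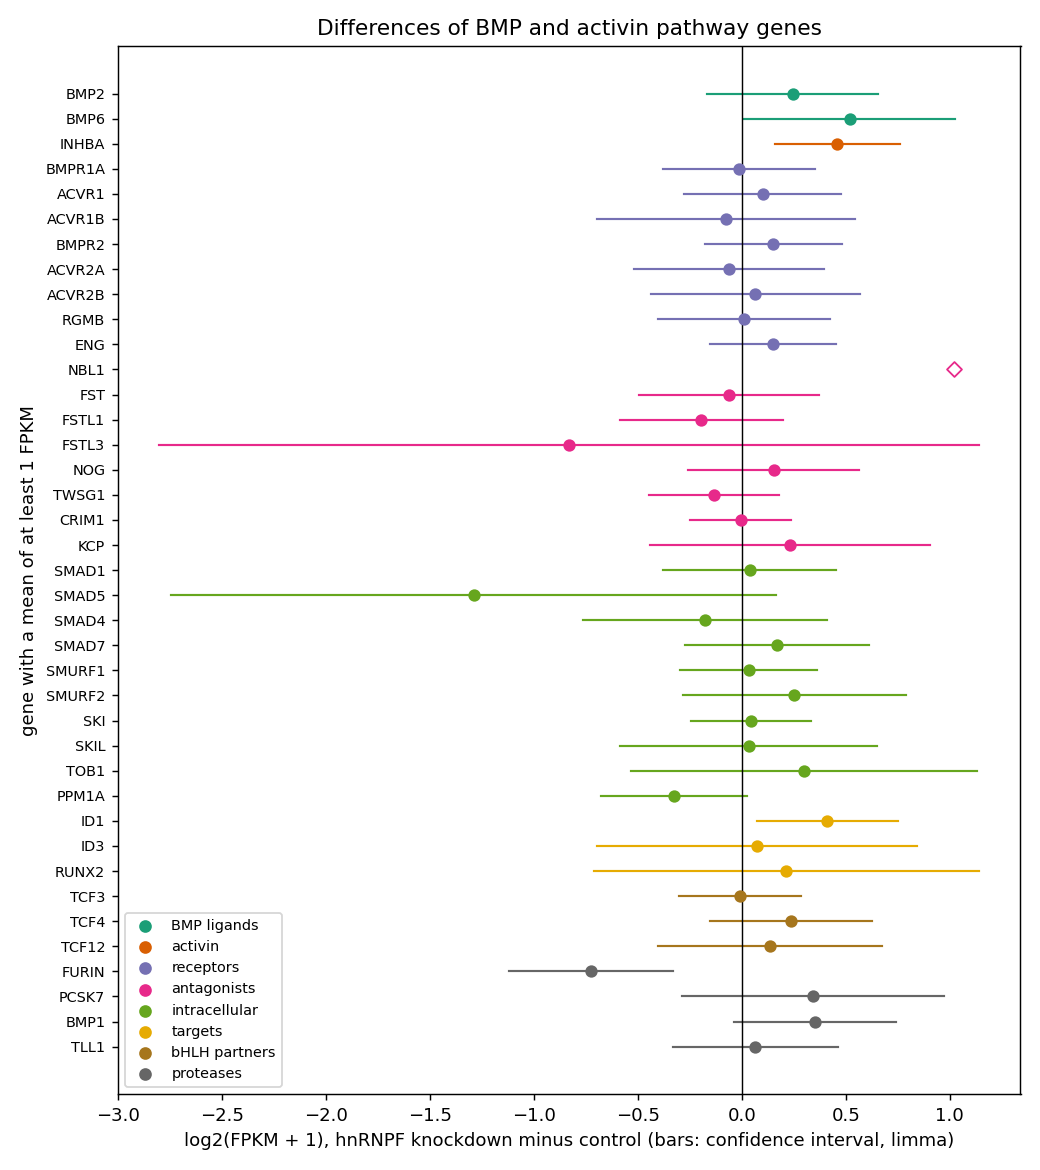
Log2(FPKM + 1) differences, hnRNPF knockdown minus control, of the 39 pathway genes averaging 1 FPKM or more, coloured by role; bars are 95% intervals from limma, and NBL1, an open diamond, has none because it chose the members. NBL1 lies farthest right at 1.02, SMAD5 farthest left at -1.29 with a wide interval, and FURIN at -0.72 with an interval below 0.

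**Figure D3:**
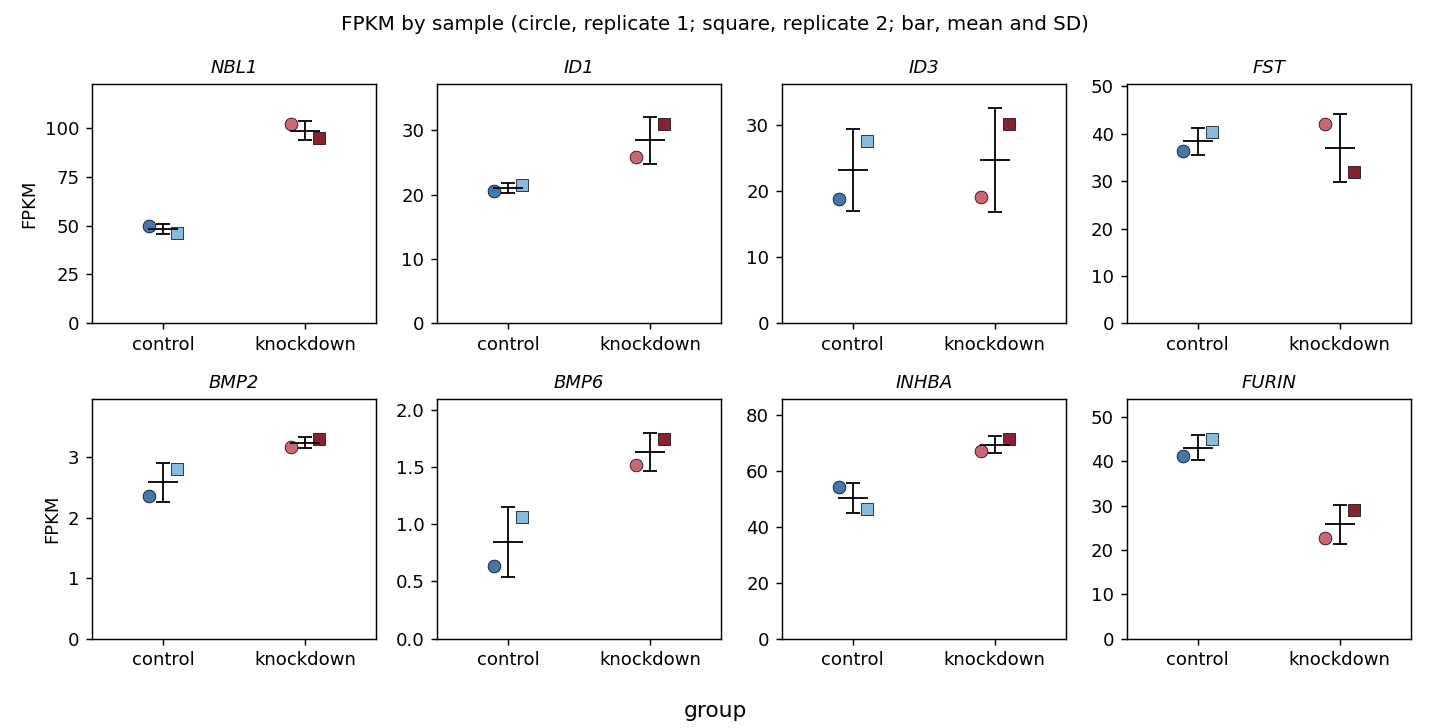
FPKM of 8 genes by group, with circles for replicate 1, squares for replicate 2, and a bar for the mean with its SD (n = 2 per group). The groups do not overlap for NBL1, ID1, BMP2, BMP6, INHBA and FURIN, while ID3 separates by replicate number and FST overlaps. The 8 include NBL1, which chose the members. They also include BMP6, INHBA and FURIN, the genes besides the members at an unadjusted p under 0.05 (limma). Of the 39 tested pathway genes 26 overlap. Over the table, the groups do not overlap for 34.6% of tested genes.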

How the data were processed

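PolyA-selected RNA of 2 control and 2 hnRNPF knockdown samples of HMLE cells was measured. The deposited table gives FPKM per gene and sample, per the file headers; Cuffdiff 2.2.1, STAR 2.5.3a and the build GRCh37 appear in the submitters' processing notes, with no role given. Steps of FPKM times length in single-exon genes of at least 500 bp were whole multiples within 0.02 for 42.8% to 45.5% of low values, so reads were not recovered and depth is an estimate. The 13110 genes averaging 1 FPKM or more were tested on log2(FPKM + 1), which understates changes of low genes. limma 3.58.1 in R 4.3.3 with an intensity trend, no covariate and Benjamini-Hochberg adjustment at 0.05 was used, two-sided. The same fit was run on simulated data with independent noise, which says nothing of variation shared by replicate number. An exact permutation test of 2 against 2 cannot reach 0.05. Folds are ratios of mean FPKM.

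The members and lists were chosen with earlier results of these data known. Named genes were the members, HNRNPF, rows overlapping a member, the 4 highest-mean tested genes of each list, and the 3 genes nearest to NBL1. MINOS1, SMAD9, SOSTDC1, ID2, ID4, SMAD6, HEY1, MSX2, FSTL3, NOG, PPM1A, TCF4, PTPRC, CDH5, DCN and LUM were added after their values were seen. Alternatives were other pseudocounts, filters, scalings, variance settings, the replicate block, leaving out samples, and summing overlapping rows. Sequences came from RefSeq (GRCh38.p14) and GENCODE 29. Python 3.11.15 with pandas 2.3.3 was used for tables.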

Additional observations from a re-analysis of the deposited data

How the results depend on the processing

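Besides NBL1, which was not tested, no member passed the threshold under any of the alternatives run, which with 2 samples a group is little evidence either way. Without a filter, without the intensity trend and with the replicate block, 0 genes of the table passed as lower, against 1 (HNRNPF); leaving out samples gave 0 to 1. As higher, 0 to 1 genes passed when samples were left out, the 1 being BLOC1S5-TXNDC5 without knockdown 2. Where 1 sample was left in a group, it was assumed to vary like the other group. With each sample left out in turn, the log2 difference of FST ran from -0.26 to 0.13 (above 0 without control 2 or knockdown 2), that of BMPR1A from -0.039 to 0.010 (above 0 without knockdown 2), that of ID3 from -0.24 to 0.39 (below 0 without knockdown 2, and at -0.19 without control 1), and that of FSTL3 from -1.92 to 0.26 (above 0 without control 1). The difference of NBL1 lay between 0.97 and 1.07 over 14 alternatives, that of ID1 between 0.28 and 0.54 and that of BMP2 between 0.15 and 0.34 over 13. BMP4 reached -0.67 with a pseudocount of 0.1 FPKM, against -0.24, because a smaller pseudocount understates low genes less. Samples share replicate numbers, but nothing says that a number marks a shared culture or day. The difference of number 1 and number 2 correlated between the groups across 13110 genes (r = 0.39; genes are not independent replicates). With the replicate block, 1790 genes lay under an unadjusted p of 0.05, against 797, and the lowest adjusted p of a member was 0.327, that of ID1. Alternatives for BMP6, INHBA, FURIN, BMP1, SMAD5 and FSTL3 were chosen after seeing the data. Each symbol had 1 row, so no sum over rows was made.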
